A study of Mus musculus with 9 samples.

Results

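The genes described here encode the nuclear-encoded subunits of the mitochondrial respiratory chain and ATP synthase, followed in BaF3 cells that carried 1 of 3 fusion tyrosine kinases. They were chosen by symbol, as genes whose symbol starts with Ndufa, Ndufb, Ndufc, Ndufs, Ndufv, Sdh, Uqcr, Cox4i, Cox5, Cox6, Cox7, Cox8 or Atp5. Earlier results of these data were known when this choice was made. For each gene the probe set with the highest average signal was taken. This gave 93 of the 19938 genes measured. Grouped by symbol, 36 fell in complex I, 4 in complex II, 8 in complex III, 17 in complex IV and 17 in complex V. The symbols also took in 11 assembly factors (Ndufaf and Sdhaf genes), which help to build complexes I and II and are not subunits of them, so the set holds 82 subunits and they are kept apart below. BaF3 is a mouse haematopoietic line that depends on interleukin-3, and every group was infected with a retrovirus and sorted for EGFP. The first group carried BCR-ABL (the p210 form, per the series' design text), the second BCR-RET and the third FGFR1OP-RET, with 3 Affymetrix MouseGene arrays in each. Uninfected cells were not analysed here, so each difference is between fusions. No label tells if a group's 3 arrays stem from 1 culture or several, so every p-value below rests on a spread that may be technical only.

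The respiratory chain of the inner mitochondrial membrane passes electrons from NADH (complex I) and succinate (complex II) through coenzyme Q, complex III and cytochrome c to oxygen at complex IV. Complexes I, III and IV pump protons as they do so, and ATP synthase, complex V, uses the returning protons to make ATP. The catalytic centres lie in a few core subunits, part of them encoded by mitochondrial DNA, while the many small supernumerary subunits, all nuclear-encoded, stabilise and assemble the complexes. Several subunits of complex IV exist in a common form and in a form typical of heart, muscle, lung or testis. Mitochondrially encoded subunits were not analysed here. The list of 19 core subunits used below holds 16 from complexes I, II, III and V. Its other 3 members, Cox4i1, Cox5a and Cox5b, are major nuclear-encoded subunits of complex IV that are supernumerary, since the core of that complex is mitochondrially encoded. Atp5d, Atp5e and Atp5g1 to Atp5g3 of ATP synthase are not on the list. A contrast of the list with the other 55 subunits is thus one of listed and unlisted genes, not of catalytic and supernumerary ones.

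A higher level in BCR-RET cells was shared by most of these genes. In BCR-RET against FGFR1OP-RET cells 89 of the 93 genes had the higher mean in BCR-RET cells, against 60.5% of all genes, with a median log2 difference of 0.22, or 0.15 without BCR-RET array 3. Against BCR-ABL cells 82 of 93 were higher in BCR-RET cells, with a median of 0.17, or 0.094 without that array (60.7% of all genes were higher). Few single genes passed the test, namely 4 of 93 in the first comparison, where 1.33% of all genes did, and 1 of 93 in the second, where 0.587% did.

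Promoter sequences were also examined. They come from a reference genome and not from these cells, so they cannot tell arrays or fusions apart. RefSeq promoter windows of build GRCm38.p6, each 250 bases before to 50 after a start site, covered 77 of the 93 genes. The motif of nuclear respiratory factor 1 (NRF1), a transcription factor long tied to respiratory chain genes, was searched on both strands, as the 10 letters in capitals in the first 4 sequences below, and stood in the windows of 7 genes, 9.09% of the 77 against 1.07% of all 27025 genes with a window. These were Atp5g2, Atp5k, Cox6a1, Ndufa11, Ndufaf4, Ndufaf5 and Uqcrc1. The shorter GCATGCGC, which lies inside the NRF1 motif and so counts every full match again, stood in 12 (15.6% against 3.05%). The ETS motif CCGGAAGT, bound by GABP, stood in 5 (6.49% against 4.31%), namely Atp5h, Cox8a, Ndufs3, Uqcr11 and Uqcrh. A YY1 motif of 11 letters stood in 4 (5.19% against 0.755%), in Ndufa9, Ndufs4, Ndufs6 and Ndufs7, and in each of these it began 25 to 36 bases after the start site. The 120 bases before the start site were also richer in G and C in the windows of the chosen genes, with a median of 61.2% against 54.2% for the same stretch of all windows. A match is a run of letters and not a measured binding site. The 120 bases before the start site are printed below for the 4 genes whose full NRF1 motif lies in that stretch and for Uqcrh and Sdhaf3, which differed between the RET fusions, with capitals marking the motif found. They lie at chr4:24897963-24898082 (plus strand, Ndufaf4), chr5:108434400-108434519 (minus, Atp5k), chr15:102671048-102671167 (minus, Atp5g2), chr17:56717642-56717761 (plus, Ndufa11), chr4:116075071-116075190 (minus, Uqcrh) and chr6:6955898-6956017 (plus, Sdhaf3).
Ndufaf4: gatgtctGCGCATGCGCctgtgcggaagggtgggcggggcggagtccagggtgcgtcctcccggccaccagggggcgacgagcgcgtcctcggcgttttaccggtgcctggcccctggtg
Atp5k: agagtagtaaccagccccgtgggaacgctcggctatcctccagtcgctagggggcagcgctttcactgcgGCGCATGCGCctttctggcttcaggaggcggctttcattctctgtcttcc
Atp5g2: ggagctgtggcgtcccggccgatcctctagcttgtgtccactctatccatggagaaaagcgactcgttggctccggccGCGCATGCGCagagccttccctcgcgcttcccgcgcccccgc
Ndufa11: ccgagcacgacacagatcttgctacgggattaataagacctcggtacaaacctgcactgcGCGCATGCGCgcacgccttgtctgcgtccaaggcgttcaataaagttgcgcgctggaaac
Uqcrh: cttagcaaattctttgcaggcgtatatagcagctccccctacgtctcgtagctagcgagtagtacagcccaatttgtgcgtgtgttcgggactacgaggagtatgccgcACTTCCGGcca
Sdhaf3: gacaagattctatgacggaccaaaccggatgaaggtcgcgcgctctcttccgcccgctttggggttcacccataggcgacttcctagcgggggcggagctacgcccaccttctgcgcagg
In Uqcrh the capitals are the ETS motif read on the opposite strand, and Sdhaf3 held no motif of the 4 searched. Of the 7 genes with the NRF1 motif, Ndufa11 and Atp5k were among those with the larger differences below. The others were not, with log2 differences in BCR-RET against BCR-ABL cells of 0.08 for Atp5g2, 0.06 for Ndufaf4, 0.06 for Uqcrc1 and -0.05 for Ndufaf5. Cox6a1 had a mean of 12.48 in both groups. Whether the motif goes with the differences was not tested.

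Medians of the 9 arrays lay between 8.01 and 8.04 on the log2 scale, and arrays of a group correlated with r of 0.993 to 0.996. Of the 10 markers of an interleukin-3-dependent pro-B line, Ptprc, Il3ra, Csf2rb and Csf2rb2 had group means of 10.3 or more, while the pro-B genes Kit, Cd79a, Vpreb1, Igll1 and Ebf1 stayed between 5.94 and 7.95 on every array. Cd79b, a B-lineage gene as well, had group means of 9.64, 9.87 and 9.72. The limma test called 3 of the 10. Csf2rb had group means of 12.03 in BCR-ABL, 12.75 in BCR-RET and 12.72 in FGFR1OP-RET cells, with adjusted p of 0.00819 and 0.00649 for the RET fusions against BCR-ABL. Csf2rb2 had means of 11.18, 12.09 and 11.74 (adjusted p = 0.00278 and 0.0236). Ptprc was lower in BCR-RET than in FGFR1OP-RET cells, at 11.48 against 11.84 (adjusted p = 0.0182). The 7 monocyte and macrophage markers had a median of 8.20 in BCR-ABL, 8.12 in BCR-RET and 8.85 in FGFR1OP-RET cells, and 3 of them, Cd14, Mpeg1 and Fcgr1, passed the limma test in some comparison. Cd14 had group means of 7.31 in BCR-ABL, 7.16 in BCR-RET and 8.37 in FGFR1OP-RET cells, and Mpeg1 means of 7.57, 7.43 and 8.58. None of the 9 markers of other tissues passed. In bulk RNA, fewer cells of a type and less RNA per cell cannot be told apart.

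Array by array, the median of each of the 5 complexes was highest on the third BCR-RET array. The median deviation of the 93 genes from their own 9-array mean was -0.07, 0.01 and -0.01 on BCR-ABL arrays 1, 2 and 3. It was 0.02, 0.08 and 0.27 on the BCR-RET arrays and -0.10, -0.10 and -0.03 on the FGFR1OP-RET arrays. The 3 BCR-RET values thus lay above all other arrays, but BCR-RET arrays 1 and 2 stood much closer to the BCR-ABL arrays than to BCR-RET array 3. BCR-RET array 1, at 0.020, exceeded BCR-ABL array 2, at 0.0098, by less than these arrays differed over all genes (0.014 and -0.0076). BCR-RET array 3 held the highest of the 9 values for 65 of the 93 genes (69.9%), against 11.7% of all genes. FGFR1OP-RET array 1 held the lowest value for 31 of them (33.3%, against 18.3% of all genes).

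**Figure D1:**
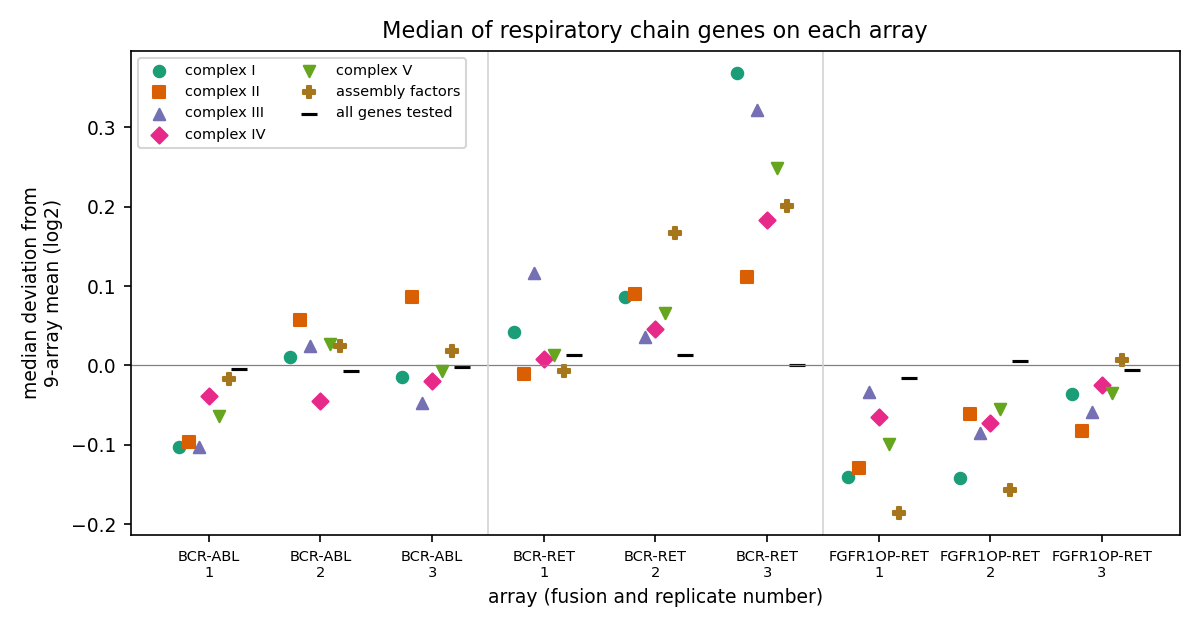
Median log2 deviation of each complex from its genes' 9-array means, on each of the 9 arrays, with black dashes for all genes tested. Complex I stands at 0.37, complex III at 0.32 and complex V at 0.25 on BCR-RET array 3, while the dashes stay near 0 on every array.

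The complexes differed in the size of this deviation. On BCR-RET array 3 the median deviation was 0.37 for complex I, 0.32 for complex III, 0.25 for complex V, 0.20 for the assembly factors, 0.18 for complex IV and 0.11 for complex II. That array was the highest for 30 of 36 complex I genes, 5 of 8 in complex III, 12 of 17 in complex IV, 12 of 17 in complex V and 1 of 4 in complex II. The 19 listed core subunits had a median of 0.11 there (0.11 also without the 3 of complex IV), against 0.36 for the 55 subunits that were neither core nor tissue forms. The median SD over the 93 genes was 0.16 in BCR-RET cells, 0.08 in BCR-ABL cells and 0.10 in FGFR1OP-RET cells. Over all genes it was 0.08, 0.07 and 0.09, in the same order. When array 3 of each fusion was left out, the median SD of the 93 was 0.087, 0.065 and 0.048. Complex II and the assembly factors had their highest median SD in FGFR1OP-RET cells, at 0.13 and 0.12.

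**Figure D2:**
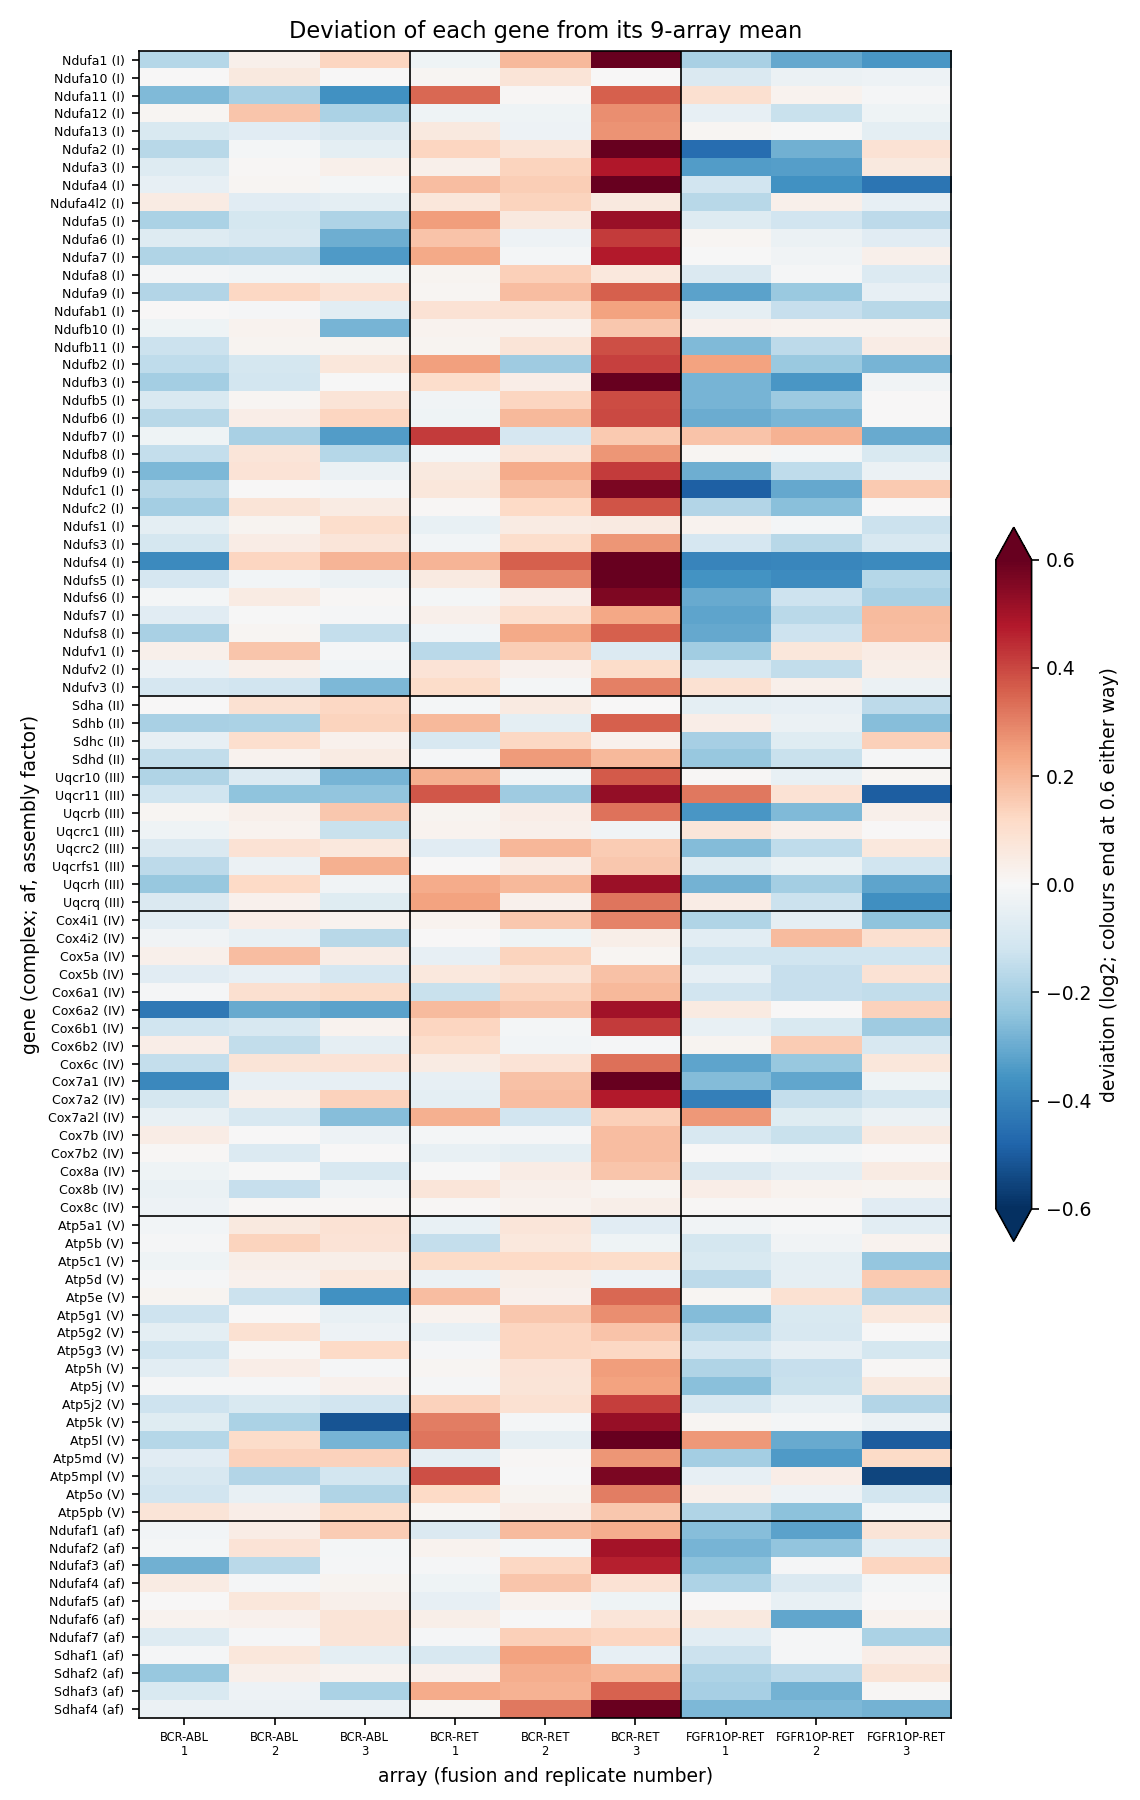
Each gene (rows, grouped by complex; af, assembly factor) on each array (columns), coloured by its log2 deviation from its own 9-array mean, with colours ending at 0.6 either way. The column of BCR-RET array 3 is the reddest, with 65 of the 93 genes at their highest value there.

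The comparison of BCR-RET with FGFR1OP-RET cells sets 2 RET fusions with different partners beside each other. It called 265 of the 19938 genes (1.33%), with 95 higher in BCR-RET cells (0.476% of all genes tested). Of the 93 respiratory chain genes 4 passed the test, all higher in BCR-RET cells: Ndufs4, Uqcrh, Sdhaf3 and Sdhaf4. At an unadjusted p under 0.05 there were 50 of 93, against 14.9% of all genes. In 31 genes all 3 BCR-RET arrays lay above all 3 FGFR1OP-RET arrays (8.77% of all genes did), and in none below (6.49% of all genes). The sign was positive in 89 of 93, against 60.5% of all genes, whose median difference was 0.03. Cd14, Mpeg1 and Ptprc were lower in BCR-RET cells in the same comparison, and their part in the result was not tested.

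By complex, the median difference in this comparison was 0.25 in complex I, 0.17 in complex II, 0.23 in complex III, 0.14 in complex IV, 0.22 in complex V and 0.23 among the assembly factors. Without BCR-RET array 3 it was 0.14 in complex III and 0.14 in complex V, and without FGFR1OP-RET array 2 it was 0.089 in complex IV. All 17 genes of complex V and all 4 of complex II were higher in BCR-RET cells, as were 35 of 36 in complex I, 16 of 17 in complex IV and 7 of 8 in complex III. The listed core subunits had a median of 0.15 (17 of 19 above 0), the tissue forms 0.04 (7 of 8) and the remaining 55 subunits 0.26, with all 55 above 0. No listed core subunit passed the test.

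Ndufs4, a supernumerary subunit of complex I needed to finish and stabilise it and mutated in Leigh syndrome, read 13.01, 13.16 and 13.45 on BCR-RET arrays 1 to 3. On the FGFR1OP-RET arrays it read 12.41, 12.41 and 12.42, and on the BCR-ABL arrays 12.42, 12.93 and 13.01. The 2 RET fusions did not overlap, and BCR-ABL spanned the gap between them. It was higher in BCR-RET than in FGFR1OP-RET cells by 0.79 (1.73-fold, SE 0.15, limma adjusted p = 0.0450). Its SD in FGFR1OP-RET cells was below 0.01, as was that of 7 of the 93 genes in some fusion. The call was lost without any 1 of 7 arrays, with an adjusted p of up to 0.158 without BCR-RET array 3.

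Uqcrh, the hinge protein of complex III that helps cytochrome c meet the complex, read 13.03, 13.00 and 13.31 on the BCR-RET arrays. It read 12.52, 12.60 and 12.49 on the FGFR1OP-RET arrays and 12.57, 12.92 and 12.78 on the BCR-ABL arrays. Every BCR-RET value exceeded every other value, and BCR-ABL array 1 fell within the FGFR1OP-RET range. The difference between the RET fusions was 0.58 (1.49-fold, SE 0.10, limma adjusted p = 0.0345). It too was lost without any 1 of 7 arrays, with an adjusted p of up to 0.0999.

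Both other calls were assembly factors of complex II. Sdhaf3, which protects the iron-sulfur subunit during its maturation, read 10.21, 10.19 and 10.34 on the BCR-RET arrays, 9.79, 9.70 and 9.99 on the FGFR1OP-RET arrays and 9.89, 9.95 and 9.80 on the BCR-ABL arrays. BCR-RET cells stood apart from both other groups, which overlapped, and the difference between the RET fusions was 0.42 (SE 0.08, limma adjusted p = 0.0445). Sdhaf4, which aids the joining of the flavin subunit to the rest of complex II, read 8.32, 8.63 and 8.90 on the BCR-RET arrays, 8.04, 8.04 and 8.03 on the FGFR1OP-RET arrays and 8.28 on each BCR-ABL array. The difference was 0.58 (SE 0.12, limma adjusted p = 0.0499), against 0.13 by the gene's other probe set, and the call was lost when probe sets were averaged. The repeated value in BCR-ABL cells made Sdhaf4 the only one of the 93 with an SD of 0 in a fusion, which held for 872 of all genes (4.37%). Both genes lost the call without any 1 of 8 arrays, with adjusted p of up to 0.163 and 0.151. Centring each array on its median ended all 4 calls of this comparison, as did a fit on its 6 arrays alone. The call of Sdhaf4 was also lost with cyclic loess and when probe sets with several symbols were used. That of Sdhaf3 was also lost when eBayes was run with its trend and robust options.

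**Figure D3:**
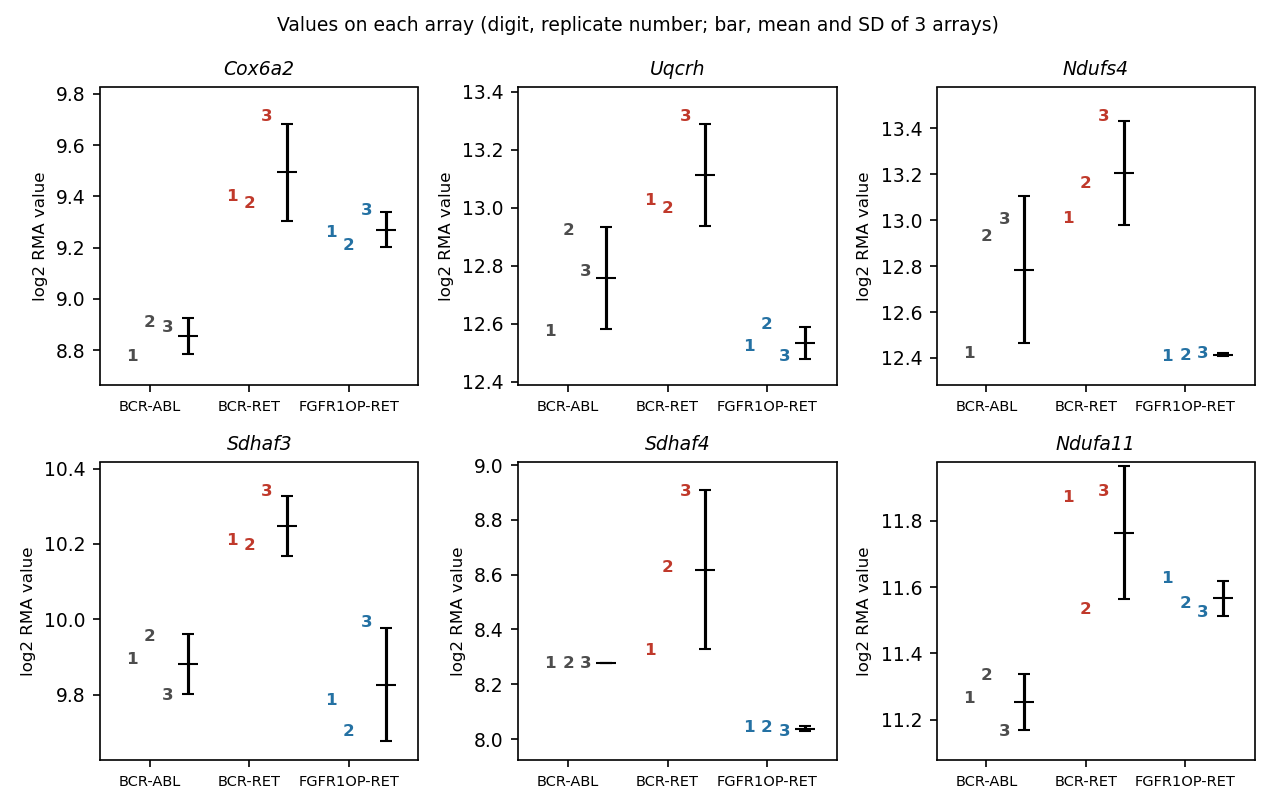
Log2 values of 6 genes on every array, with digits for the replicate number and bars for the mean and SD of 3 arrays; each panel has its own vertical axis, which does not start at 0. BCR-RET values of Uqcrh, Sdhaf3, Sdhaf4, Cox6a2 and Ndufs4 lie above those of FGFR1OP-RET, and Sdhaf4 has 1 repeated value in BCR-ABL cells.

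Ndufa4 bears a complex I name though it is found in complex IV, and by that name it was counted in complex I here, as was Ndufa4l2. Ndufa4 missed the threshold narrowly. It read 12.05, 12.02 and 12.51 on the BCR-RET arrays, 11.76, 11.51 and 11.43 on the FGFR1OP-RET arrays and 11.82, 11.88 and 11.86 on the BCR-ABL arrays. The groups did not overlap, in the order BCR-RET, BCR-ABL and FGFR1OP-RET, and the difference between the RET fusions was 0.63 (SE 0.13, limma adjusted p = 0.0501). Other genes at the top of their complexes did not pass. They were Cox7a1, the heart and muscle form of a complex IV subunit (0.56, SE 0.22), Atp5mpl, a small ATP synthase subunit (0.50, SE 0.17), and Sdhd, a membrane anchor of complex II (0.27, SE 0.09). Their adjusted p-values were 0.292, 0.219 and 0.207 in limma.

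Some genes differed little between the RET fusions. Uqcrc1, a core protein of complex III, differed by -0.024 (SE 0.05), Ndufv1, the flavin-binding subunit of complex I, by -0.00067 (SE 0.10), Atp5b, the catalytic beta subunit of ATP synthase, by 0.0018 (SE 0.07) and the assembly factor Ndufaf5 by -0.0027 (SE 0.05). The lowest value was that of Cox4i2, the lung form of a complex IV subunit, at -0.07 (SE 0.07). The common form Cox4i1 stood at 0.32, with 12.24, 12.38 and 12.52 on the BCR-RET arrays and 12.04, 12.17 and 11.98 on the FGFR1OP-RET arrays, which did not overlap, though it did not pass.

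**Figure D4:**
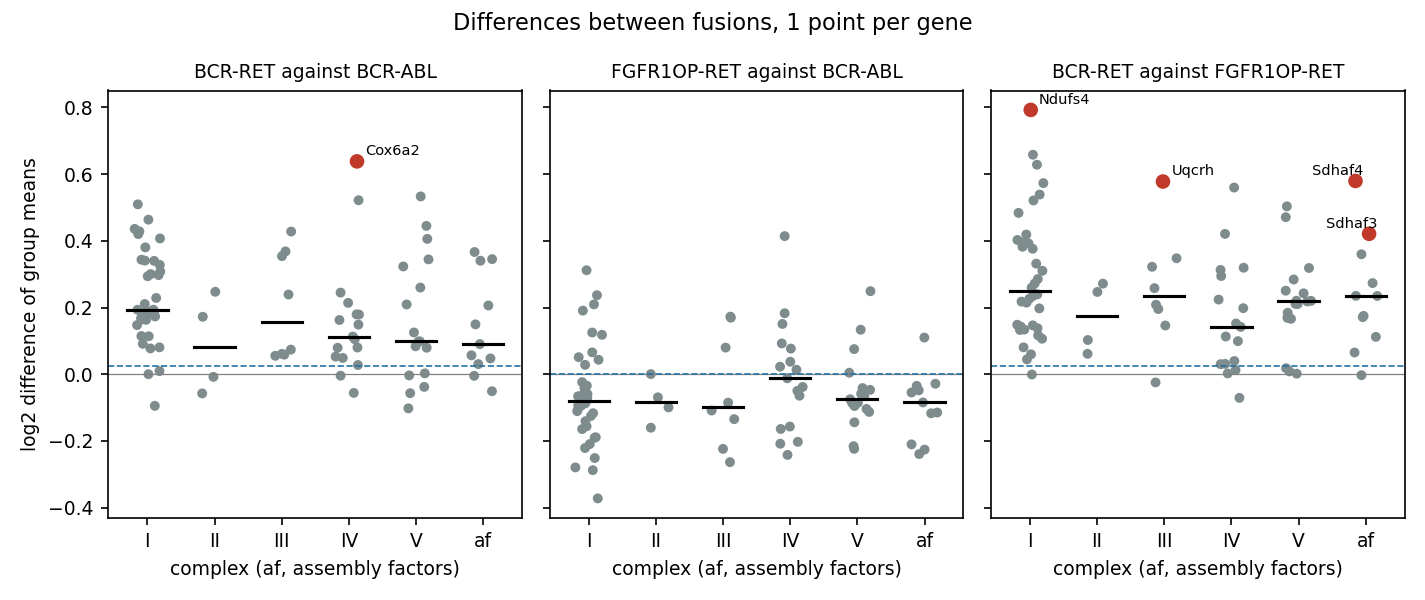
Log2 difference of each gene in the 3 comparisons of fusions, by complex (af, assembly factors), with black bars for medians, blue dashed lines for the median of all genes tested and red points for genes past the test. The bars lie above the dashed line in both BCR-RET panels and below it in the middle panel, and the 5 red points are Cox6a2, Ndufs4, Uqcrh, Sdhaf3 and Sdhaf4.

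In BCR-RET against BCR-ABL cells, where the kinase differs and the BCR partner is shared by name, 117 genes passed (0.587% of those tested, with 74, or 0.371%, higher) and Cox6a2 was the only respiratory chain gene among them. There were 28 of 93 at an unadjusted p under 0.05, against 11.4% of all genes. In 32 genes all BCR-RET arrays lay above all BCR-ABL arrays (10.7% of all genes did), and in none below (5.90%). The median was 0.19 in complex I (35 of 36 above 0), 0.16 in complex III (8 of 8), 0.11 in complex IV (15 of 17), 0.10 in complex V (13 of 17) and 0.08 in complex II (2 of 4). Without BCR-RET array 3 it was 0.104 in complex I, 0.065 in complex IV and 0.058 in complex V. Without BCR-RET array 1 it was 0.15 in complex V, 0.14 in complex II and 0.14 among the assembly factors. Complex II stood at 0.029 without BCR-RET array 2 and at 0.034 without BCR-ABL array 1. With all arrays the median was 0.09 for the assembly factors (9 of 11), 0.07 for the listed core subunits (13 of 19) and 0.21 for the other 55 (52 above 0), beside 0.03 for all genes. Csf2rb and Csf2rb2 were higher in BCR-RET cells in the same comparison, and their part in the result was not tested. When each array was centred on its median, the median over the 93 genes was 0.11 and 71 were above 0.

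Cox6a2 is the heart and skeletal muscle form of a small complex IV subunit. It read 9.40, 9.37 and 9.71 on the BCR-RET arrays, 8.78, 8.91 and 8.89 on the BCR-ABL arrays and 9.26, 9.21 and 9.34 on the FGFR1OP-RET arrays. No 2 groups overlapped, and both RET fusions lay above BCR-ABL. It rose by 0.64 in BCR-RET against BCR-ABL cells (1.56-fold, SE 0.09, limma adjusted p = 0.0153). The call was lost without any 1 of the BCR-ABL arrays (adjusted p of up to 0.0808), with array centring and in a fit on the 6 arrays alone. Its common counterpart Cox6a1 differed by 0.00 and read 12.41, 12.51 and 12.53 in BCR-ABL and 12.28, 12.55 and 12.61 in BCR-RET cells. The other tissue forms, Cox4i2, Cox6b2, Cox7b2, Cox8b, Cox8c and Ndufa4l2, differed by 0.03 to 0.11, and Cox7a1 by 0.52 with overlapping groups. Cox6a2 and Cox7a1 had means of 8.86 and 8.95 in BCR-ABL cells and 9.49 and 9.47 in BCR-RET cells. Of the 9 markers of other tissues, Ckm and Col1a1 had means of 8.94 and 8.95 in BCR-ABL cells and 9.10 and 9.05 in BCR-RET cells. The median of the 9 was 7.42 and 7.53. Whether Cox6a2 or Cox7a1 lay above background was not tested.

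Deviations of same-numbered arrays of these 2 groups correlated with r of 0.617, 0.155 and 0.367. BCR-RET array 2, however, correlated more with BCR-ABL array 3 (0.222), and no label says that the numbers pair arrays. The number was used as a block in a fit over all 9 arrays, FGFR1OP-RET included. With it 362 genes passed (1.82%), among them 3 respiratory chain genes, all higher in BCR-RET cells. They were Cox6a2 (adjusted p = 0.00208 in limma), Ndufa11 (0.0231) and Ndufaf3 (0.0213). Ndufa11, a membrane subunit of complex I whose promoter is printed above, read 11.87, 11.53 and 11.89 on the BCR-RET arrays, 11.26, 11.33 and 11.17 on the BCR-ABL arrays and 11.63, 11.55 and 11.52 on the FGFR1OP-RET arrays. BCR-ABL cells lay below both RET fusions, and the difference from BCR-RET was 0.51 (SE 0.09, adjusted p = 0.0537 without the block), against 0.33 by its other probe set. Ndufaf3, an assembly factor of complex I, read 10.38, 10.51 and 10.85 in BCR-RET and 10.10, 10.23 and 10.38 in BCR-ABL cells, a higher value at each number.

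Other genes at the top of their complexes in this comparison did not pass with or without the block. Atp5k, a small subunit of the membrane part of ATP synthase, read 10.78, 10.46 and 10.99 in BCR-RET and 10.40, 10.28 and 9.95 in BCR-ABL cells, groups that did not overlap, with a difference of 0.53 (SE 0.14). Uqcr11, a small complex III subunit, differed by 0.43 (SE 0.22), but read 11.79, 11.21 and 11.95 in BCR-RET cells against 11.30, 11.18 and 11.19, so BCR-RET array 2 lay within the BCR-ABL range. Sdhb, the iron-sulfur subunit of complex II, differed by 0.25 (SE 0.13) and Sdhaf3 by 0.37 (SE 0.08). At the lower end stood the catalytic Atp5b (-0.10, SE 0.07), the flavin-binding Ndufv1 (-0.09, SE 0.10), Sdha, the flavin subunit of complex II (-0.06, SE 0.05), and Cox5a (-0.06, SE 0.06). Each of these 4 was within 2 standard errors of 0.

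FGFR1OP-RET against BCR-ABL cells gave the opposite tilt at a smaller size. The test called 203 genes (1.02% of those tested) and none of the 93, with 11 at an unadjusted p under 0.05 (9.75% of all genes). Cox6a2 alone of the 93 passed when BCR-RET array 3 was left out of the shared fit. The sign was negative in 66 and positive in 27 (50.8% of all genes were above 0), the median was -0.07 and that of all genes was 0.00. Without FGFR1OP-RET array 3 the median of the 93 was -0.11. In 14 genes all FGFR1OP-RET arrays lay below all BCR-ABL arrays (5.13% of all genes) and in 9 above (6.94%). The medians were -0.08 in complexes I and II, -0.10 in complex III, -0.01 in complex IV, -0.07 in complex V and -0.08 among the assembly factors, where only Ndufaf3 (0.11, SE 0.13) was above 0. Without FGFR1OP-RET array 3 they were -0.13 in complex I, -0.14 in complex II, -0.032 in complex III and -0.14 among the assembly factors. Without FGFR1OP-RET array 1 complex I stood at -0.039 and complex II at -0.055, and without array 2 the assembly factors stood at -0.048. Complex III stood at -0.15 without BCR-ABL array 1 and at -0.048 without BCR-ABL array 3, and complex II at -0.13 without BCR-ABL array 1. Cd14, Mpeg1, Fcgr1, Csf2rb and Csf2rb2 were called higher in FGFR1OP-RET cells here, and their part in the differences was not tested.

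The largest values in this comparison were of both signs. Cox6a2 stood at 0.41 (SE 0.09, limma adjusted p = 0.0801) and Ndufa11 at 0.31 (SE 0.09, adjusted p = 0.251), and both had FGFR1OP-RET arrays wholly above BCR-ABL. The other probe set of Ndufa11 gave 0.10. Ndufs4 stood at -0.37 (SE 0.15), where BCR-ABL array 1, at 12.42, matched the FGFR1OP-RET arrays. Atp5pb, the peripheral stalk subunit b of ATP synthase, read 12.10, 12.04 and 12.27 in FGFR1OP-RET and 12.36, 12.32 and 12.39 in BCR-ABL cells, a difference of -0.22 (SE 0.07, adjusted p = 0.266). Sdha was also apart, with 12.03, 12.04 and 11.93 against 12.09, 12.18 and 12.21 (difference -0.16, SE 0.05, adjusted p = 0.328). Cox7a2, the common form paired with Cox7a1, stood at -0.24 (SE 0.13) and Uqcrb, a small complex III subunit that binds coenzyme Q, at -0.26 (SE 0.11).

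The listed core subunits can be followed through all 3 comparisons, which share groups and so are not independent. Ndufs8, an iron-sulfur subunit of complex I, differed by 0.30 in BCR-RET against BCR-ABL, 0.03 in FGFR1OP-RET against BCR-ABL and 0.27 in BCR-RET against FGFR1OP-RET cells. Ndufs7, beside it in the chain of iron-sulfur clusters, differed by 0.15, -0.07 and 0.22, and Ndufs3 by 0.11, -0.12 and 0.24. Ndufs1, with the most clusters of these subunits, differed by 0.00, -0.06 and 0.06. In complex III the core protein Uqcrc2 differed by 0.07, -0.13 and 0.21 and the Rieske protein Uqcrfs1 by 0.06, -0.09 and 0.15. In ATP synthase the alpha subunit Atp5a1 differed by -0.06, -0.07 and 0.02 and the gamma subunit Atp5c1 by 0.10, -0.14 and 0.24. The beta subunit Atp5b, which forms the catalytic head with the alpha subunit, differed by -0.10, -0.10 and 0.00, and its value was the lowest of the 93 in BCR-RET against BCR-ABL cells.

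Arrays of the same number were also set against each other. Between BCR-RET and FGFR1OP-RET the median difference over the 93 genes was 0.17, 0.18 and 0.34 for numbers 1, 2 and 3, with 81, 79 and 83 genes above 0. Between BCR-RET and BCR-ABL it was 0.11, 0.08 and 0.28 (75, 74 and 81 above 0). Between FGFR1OP-RET and BCR-ABL it was -0.05, -0.13 and -0.02 (36, 25 and 43 above 0). The sign of the median therefore held at all 3 numbers, and the number 3 arrays gave the largest value in both BCR-RET comparisons. Between FGFR1OP-RET and BCR-ABL at number 3, however, 46.2% of the 93 genes were above 0, against 45.1% of all genes. The median of complex I was 0.02 there. At all 3 numbers 65 genes were higher in BCR-RET than in FGFR1OP-RET cells and 0 lower, against 21.5% and 14.4% of all genes. For BCR-RET against BCR-ABL it was 62 higher and 5 lower, against 25.7% and 16.1%. For FGFR1OP-RET against BCR-ABL it was 14 higher and 30 lower, against 15.6% and 14.7%. The listed core subunits gave 0.10, 0.18 and 0.13 at numbers 1, 2 and 3 between the RET fusions, and the other 55 subunits gave 0.20, 0.18 and 0.41.

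The numbers were then compared with each other, with the fusion as a block. What a number marks is not stated in the labels. Number 3 against 1 called 1964 genes (9.85%), 1330 of them higher on number 3 (6.67% of all tested). Of the 93 genes 16 passed, all higher on number 3: 8 in complex I, 3 in complex IV, 2 in complex III and 1 each in complexes II and V and among the assembly factors. The median over the 93 was 0.08 with 73 above 0 (46.9% of all genes), beside -0.01 for all genes, and 34 had an unadjusted p under 0.05 (23.8% of all genes). Number 2 against 1 called 157 genes (0.787%) and 0 of the 93 in limma, where 15 of the 93 had an unadjusted p under 0.05 (14.2% of all genes). Number 3 against 2 called 1 gene (0.00502%) and 0 of the 93, with 14 at an unadjusted p under 0.05 (6.89% of all genes).

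Cox7a1 had the largest of these differences, at 0.53 (SE 0.14, limma adjusted p = 0.0462). It read 8.73, 9.07 and 9.06 on the BCR-ABL arrays, 9.06, 9.29 and 10.07 on the BCR-RET arrays and 8.85, 8.80 and 9.09 on the FGFR1OP-RET arrays. BCR-RET array 3 stood far above the other 8, which gave the gene the widest range of the 93, 1.34. Ndufc1, a small membrane subunit of complex I, followed at 0.43 (SE 0.09, adjusted p = 0.0201) and Ndufa2 at 0.41 (SE 0.11, adjusted p = 0.0441). Ndufaf3 stood at 0.38 (SE 0.06, adjusted p = 0.00730), Cox7a2 at 0.36 and Ndufb6 at 0.34.

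Smaller differences of the same sign were called for Ndufa3 (0.32), Cox6c (0.30), Ndufa9 (0.29), Ndufb5 (0.29), Ndufb9 (0.29) and Uqcrb (0.28), and also for Ndufb11, Uqcrc2, Atp5g1 and Sdhd. All 16 were higher on number 3 within each fusion. Over all 93 genes, however, the median of number 3 minus 1 was 0.21 in BCR-RET cells (84 above 0), 0.04 in BCR-ABL cells (60 above 0) and 0.02 in FGFR1OP-RET cells (52 above 0). Of all genes 40.4%, 48.9% and 51.7% were above 0, in the same order. Whether the median of the 93 differed between fusions was not tested. Without BCR-RET array 1 none of the 93 passed, without BCR-RET array 3 1 did, without FGFR1OP-RET array 3 2 did and without BCR-ABL array 1 6 did. With cyclic loess between arrays 4 passed.

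**Figure D5:**
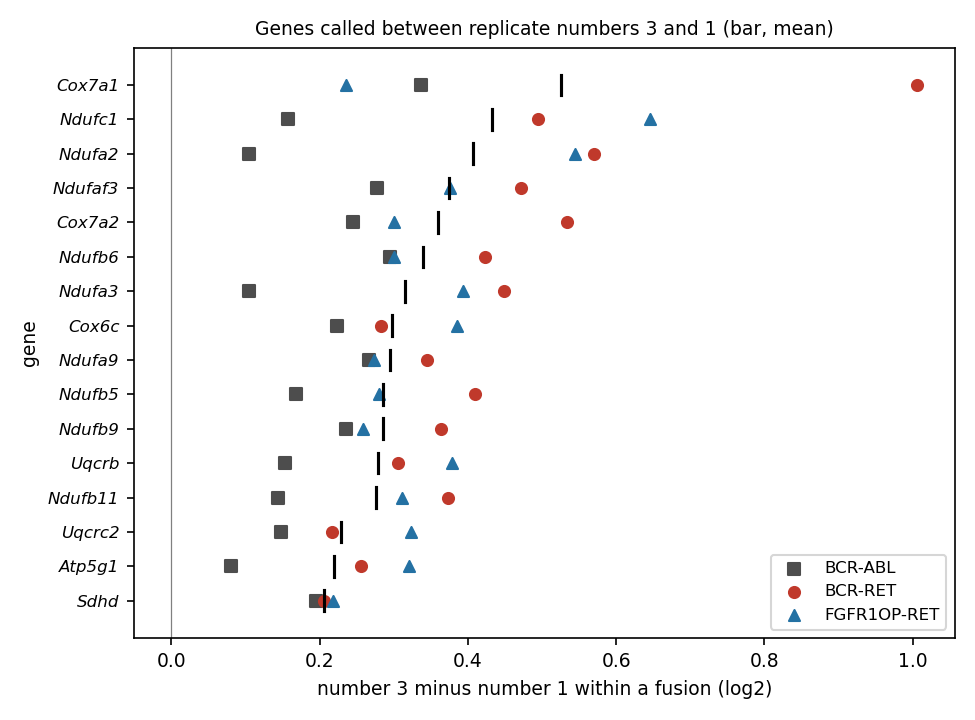
Log2 value on array 3 minus array 1 within each fusion, for the 16 genes called between these numbers, with black bars for the mean of the 3 fusions. All points lie to the right of 0, and Cox7a1 in BCR-RET cells lies farthest out.

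The genes around the respiratory chain were read from lists. Of all genes 60.5% were higher in BCR-RET than in FGFR1OP-RET cells, and 1.33% were called between these fusions. Of 77 mitochondrial ribosomal proteins, which build the ribosomes that translate mitochondrial DNA, 72 were higher in BCR-RET than in FGFR1OP-RET cells, with a median of 0.18 and 1 call, Mrpl15 (0.38, SE 0.07, limma adjusted p = 0.0458). Their array medians resembled those of the chain, with 0.23 on BCR-RET array 3 and -0.10 on FGFR1OP-RET arrays 1 and 2. Between numbers 3 and 1, 18 of them were called higher and 1, Mrps12, lower, where 9.85% of all genes were called and 6.67% were called higher. The 67 cytosolic ribosomal proteins had a median of 0.04 between the RET fusions and 0.06 on BCR-RET array 3, with 0 calls between fusions.

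Among 23 genes of mitochondrial protein import, 18 were higher in BCR-RET than in FGFR1OP-RET cells (60.5% of all genes were), with a median of 0.17. There was 1 call (1.33% of all genes were called), Tomm5, a small subunit of the outer membrane pore (1.02, SE 0.20, limma adjusted p = 0.0485). The 25 assembly factors outside the symbol rule had a median of 0.11 (21 above 0), the 17 genes of the tricarboxylic acid cycle 0.13 (12 above 0) and the 9 carriers of the inner membrane 0.12 (8 above 0), with 0 calls. The 12 genes of electron carriers and coenzyme Q synthesis had a median of 0.04 and the 12 of mitochondrial translation and DNA upkeep -0.01. The 15 transcription factors and coactivators of mitochondrial genes went the other way, with a median of -0.05 (10 below 0) and 0 calls in each comparison of fusions. Between numbers 3 and 1, where 9.85% of all genes were called, 2 of these 15 passed. Tfb2m, which starts transcription of mitochondrial DNA, was higher (0.55, SE 0.09, limma adjusted p = 0.00733). Esrra, a nuclear receptor that drives respiratory genes, was lower (-0.41, SE 0.06, limma adjusted p = 0.00733). The same comparison called 5 of the 23 import genes and 2 of the 9 carriers, all higher. It also called 1 gene of the tricarboxylic acid cycle and 1 of mitochondrial translation, both higher. Among the electron carriers and the assembly factors outside the symbol rule it called 0.

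The 93 genes differed widely in how much they varied. The range over the 9 arrays ran from 0.10 for Cox8c, the testis form of a complex IV subunit, to 1.34 for Cox7a1, with a median of 0.54 against 0.31 for all genes. It exceeded 1 in 12 of the 93 genes, 7 of them in complex I, and in 340 of all genes. The 2 sets differ in level, since 88 of the 93 genes had a mean no lower than the median of all genes. The same value stood on at least 3 arrays in 9.68% of the 93 and 30.1% of all genes. Shares over all genes were not matched for level. Atp5mpl spanned 1.12, with 11.73, 11.65 and 11.72 in BCR-ABL, 12.22, 11.83 and 12.40 in BCR-RET and 11.78, 11.87 and 11.28 in FGFR1OP-RET cells. There the wide range came from BCR-RET arrays 1 and 3 above and FGFR1OP-RET array 3 below, unlike Ndufs4, whose FGFR1OP-RET arrays were all low. For 18 of the 93 genes several probe sets were present, 44 in all, and those of a gene had the same sign in 18 of 18 genes between the RET fusions, 15 in BCR-RET against BCR-ABL and 17 in FGFR1OP-RET against BCR-ABL.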

How the data were processed

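RNA from 9 BaF3 samples was measured on Affymetrix MouseGene arrays, and groups and replicate numbers came from the sample titles. Per the submitters' processing notes, the authors deposited log2 values from Affymetrix Expression Console, by gene-level RMA. Its version, annotation and genome build were not given in the sources used here. RMA makes array distributions alike, so a shift of most transcripts would not be seen. Of 35557 probe sets, 21789 with 1 symbol were used, and the one with the highest mean stood for each of 19938 genes. Differences were fitted with limma 3.58.1 (lmFit, eBayes) in R 4.3.3 over all 9 arrays, with Benjamini-Hochberg adjustment over all genes and a threshold of 0.05. Replicate numbers were compared with the fusion as a block. SD is over 3 arrays, whose number limits precision, and SE is that of a log2 difference (median 0.09 over the chosen genes, 0.07 over all). The fit was checked on simulated data. Deviations of same-numbered arrays correlated, across genes, with r of 0.617, 0.155 and 0.367 between BCR-RET and BCR-ABL, all above the limit of 0.1 for pairs, but not in the other comparisons. Named are the genes past the test (up to 12 a comparison), the highest and lowest per complex, core subunits and tissue forms. Members and lists were chosen with earlier results of these data known. Ndufa4, Cox6a1 and further examples were added after their values were seen. Alternatives covered array scaling, probe set choice, filtering, variance model, samples fitted and each array left out, and, chosen after seeing the data, the core list without complex IV genes.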

Additional observations from a re-analysis of the deposited data

How the results depend on the processing

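Medians by complex kept their sign under the settings tried, except complex IV in FGFR1OP-RET against BCR-ABL cells, which ran from -0.025 to 0.014 as single arrays were left out. The median of complex IV in BCR-RET against BCR-ABL was 0.052 with arrays centred on their medians, and in BCR-RET against FGFR1OP-RET it was 0.20 without genes of low mean. That of complex III in the latter ran from 0.14 to 0.33 as arrays were left out. Without its 3 complex IV genes, an alternative chosen after seeing the data, the median of the listed core subunits was 0.068 in BCR-RET against BCR-ABL, -0.080 in FGFR1OP-RET against BCR-ABL and 0.14 between the RET fusions. Calls among the 93 genes were less stable, and the cause was not tested. With array centring 0 passed in BCR-RET against BCR-ABL and 0 in BCR-RET against FGFR1OP-RET, and likewise 0 and 0 with only the 6 arrays compared, where all genes called numbered 56 and 34, and 94 in FGFR1OP-RET against BCR-ABL. Without genes of low mean 2 of the 93 passed in BCR-RET against BCR-ABL and 27 between numbers 3 and 1, where cyclic loess left 4. Over all genes, numbers 2 and 1 differed in 91 with centring and 498 without genes of low mean, and numbers 3 and 2 in 2.

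With the replicate number as a block, BCR-RET against BCR-ABL called 362 genes and 3 of the 93, FGFR1OP-RET against BCR-ABL 576 (2.89%) and 2 (Cox6a2 higher and Uqcrb lower) and BCR-RET against FGFR1OP-RET 1135 (5.69%) and 27. The latter 2 comparisons have 1 number each with a negative correlation (-0.13 and -0.15), below the limit of 0.1 for pairs. At numbers 1 and 3 r was 0.382 and 0.400 for FGFR1OP-RET with BCR-ABL, and 0.498 and 0.410 for BCR-RET with FGFR1OP-RET. No label says that the numbers pair arrays, and with 3 numbers not every array correlated best with its own.

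As single arrays were left out, the 93 genes gave 0 to 4 calls in BCR-RET against BCR-ABL, 0 to 1 in FGFR1OP-RET against BCR-ABL (Cox6a2, without BCR-RET array 3), 0 to 3 in BCR-RET against FGFR1OP-RET and 0 to 21 between numbers 3 and 1. All genes gave 28 to 114, 70 to 185, 86 to 194 and 284 to 2549, with 17 to 281 for numbers 2 and 1 and 0 to 5 for numbers 3 and 2. Where this left 2 arrays in a group, the spread was shared with the others. Differences near 0 changed sign. With centring Uqcrc1 in BCR-RET against BCR-ABL was -0.0051, Sdhb in FGFR1OP-RET against BCR-ABL -0.024 and Atp5b in BCR-RET against FGFR1OP-RET -0.035, and -0.035 with cyclic loess. As arrays were left out, Sdhb ran from -0.062 to 0.11 and, between the RET fusions, Ndufv1 from -0.090 to 0.065, Sdhc from -0.017 to 0.15, Atp5b from -0.048 to 0.056 and Ndufaf5 from -0.022 to 0.012. Groups of 3 arrays limit what the test can call. Signal over background was not used here for dim genes such as Cox7b2, nor for Cox6a2 or Cox7a1.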
